A study of Homo sapiens with 6 samples.

Results

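Histone genes were followed in MKN-74 cells (an epithelial-like line established from human gastric cancer) after forced expression of the homeobox transcription factor HOXD9. The members were all protein-coding genes of the gene table whose symbol begins with HIST1H to HIST4H (replication-dependent histone genes) or with H2AF, H3F3 or H1F (variant, or replacement, histone genes). This rule uses names and no measured value. It found 68 genes, 59 replication-dependent and 9 variant, of 12385 genes and 11228 protein-coding genes listed, and 101 of 40304 listed transcripts belonged to them. In the LV-HOXD9 group, cells carried HOXD9 in a lentiviral vector with a ubiquitin promoter that also codes for green fluorescent protein and puromycin resistance. In the LV-Vector group, cells carried the same lentivirus without HOXD9. Cells of both groups had therefore been infected and selected with puromycin, and each group had 3 libraries that the labels call biological replicates. No source says that they came from separate infections, so p-values measure the spread between these libraries, which may be partly technical. Levels are in FPKM, fragments scaled to the length of the gene model and to all fragments of the library, and differences are on the log2(FPKM + 1) scale, as LV-HOXD9 over LV-Vector.

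The nucleosome, the unit that packs DNA, wraps DNA around core histones H2A, H2B, H3 and H4, and linker histone H1 binds where DNA enters and leaves it. Replication-dependent histones are made during S phase, when the DNA is copied. Their genes lie in clusters, have no introns, and give mRNAs that end in a conserved stem-loop in place of a poly(A) tail. The stem-loop is bound by SLBP and the mRNA is cut behind it by the U7 small nuclear ribonucleoprotein. Variant histones are made throughout the cell cycle, mostly from polyadenylated mRNAs of genes outside the clusters, and take special places in chromatin, such as H2AFX (H2A.X) at DNA breaks or H2AFZ (H2A.Z) at promoters. In bulk RNA of this kind, more cells in S phase and more histone mRNA per S-phase cell cannot be told apart.

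HOXD9 itself stood at 26.6, 26.4 and 31.3 FPKM in LV-HOXD9 libraries, against 0, 0.0413 and 0.0309 FPKM in the LV-Vector libraries, as the labels have it. All 15 epithelial markers looked for were listed, with a summed level of 1309 to 1356 FPKM in LV-HOXD9, against 1168 to 1317 FPKM in LV-Vector. Of the 15 markers, 11 had a log2 fold change below 0 (median -0.082), against 7420 of all 12385 genes (median -0.044). Of 10 fibroblast markers, only ACTA2 and COL1A1 were listed, with sums of 4.48 to 4.81 and 4.25 to 5.09 FPKM. None of 6 endothelial markers was listed. Of leukocyte markers, LYZ was lower without overlap, at 1.72, 1.71 and 1.24 FPKM in LV-HOXD9, against 2.93, 2.95 and 2.71 FPKM in LV-Vector (log2 fold change -0.60, limma adjusted p = 0.0840), and CD68 overlapped, at 1.49, 1.37 and 1.45 FPKM against 1.66, 2.32 and 1.35 FPKM. The part of these genes in the histone levels was not tested. The 2 libraries that stood apart were LV-HOXD9 replicate 3, lowest of the 6 in 4150 of 12385 genes, and LV-Vector replicate 2, highest in 4036 genes. Results that rest on them are given below with and without both.

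The stem-loop that sets replication-dependent mRNAs apart was searched in the leading transcript of each gene, the one with the highest mean FPKM, in the GENCODE release 29 sequence. The search took the sense strand for a left stem arm GGNNCT, a loop TTTN and a right stem arm AGNNCC in 1 run, where N is any base. Transcripts were matched for 64 of 68 members. The motif was held by 22 of 55 matched replication-dependent genes, 1 of 9 variant genes and 14 of 12005 other genes (0.117%). In 29 of the 55 replication-dependent genes the leading model was the coding sequence alone and ended before the stem-loop, and of the other 26 genes 22 held it. The single variant with the motif was H2AFX. The sequences below show the forms of the stem-loop in H2B and H4 genes and in H2AFX, with the motif in capitals and 5 bases on either side.

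HIST1H2BH: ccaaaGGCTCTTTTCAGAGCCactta
HIST1H2BD: ccaaaGGCTCTTTTAAGAGCCacgca
HIST1H4J: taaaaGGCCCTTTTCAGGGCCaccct
HIST1H4E: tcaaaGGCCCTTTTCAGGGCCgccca
HIST2H4A: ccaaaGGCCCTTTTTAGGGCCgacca
HIST4H4: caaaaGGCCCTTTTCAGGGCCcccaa
H2AFX: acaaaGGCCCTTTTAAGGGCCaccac

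The 16 bases in capitals took 6 forms over 23 genes. The form of HIST1H2BH stood in 13 genes, among them HIST1H2AI, HIST2H2BE and HIST2H3A, and the form of HIST1H4J in 4 H4 genes. HIST2H4A and HIST2H4B shared a form, as did HIST1H2BD and HIST1H3G. H2AFX and HIST1H2AG each had a form of their own. The stem of H2AFX was that of the H4 genes, with another base in the loop.

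Promoters, from 250 bases before to 50 bases after the first RefSeq start of each gene (GRCh38.p14), were matched for 48 replication-dependent and 8 variant genes and compared with all 27305 promoters in the same table, on both strands. The CCAAT box (CCAAT), which binds NF-Y, was found in every matched H1, H2A, H2B and H3 promoter of the replication-dependent genes and in 1 of 10 H4 promoters, or 39 of 48 in all, against 6 of 8 variant promoters and 35.7% of all promoters. The octamer (ATTTGCAT), the site of OCT1, was found in 10 of 14 H2A and 8 of 11 H2B promoters, 1 of 10 H3 promoters and no H1 or H4 promoter, against 1 of 8 variant promoters and 1.80% of all. The short H4 element searched (GGTCCG) was found in 10 of 10 H4 promoters, against 13 of 48 replication-dependent, 1 of 8 variant and 11.2% of all promoters. The TATA box (TATAAA) was found in 33 of 48 replication-dependent and 4 of 8 variant promoters, against 11.95% of all. A match describes the letters only. The promoters of HIST1H4L and H2AFX, the members with the smallest p-values below, and of HIST1H2AI and H2AFZ, an H2A gene and a variant without such a difference, are shown with these motifs in capitals, on either strand, so that a CCAAT box on the other strand reads ATTGG. They lie at chr6:27873485-27873784 (minus strand), chr11:119095416-119095715 (minus strand), chr6:27807923-27808222 (plus strand) and chr4:99950226-99950525 (minus strand).

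HIST1H4L: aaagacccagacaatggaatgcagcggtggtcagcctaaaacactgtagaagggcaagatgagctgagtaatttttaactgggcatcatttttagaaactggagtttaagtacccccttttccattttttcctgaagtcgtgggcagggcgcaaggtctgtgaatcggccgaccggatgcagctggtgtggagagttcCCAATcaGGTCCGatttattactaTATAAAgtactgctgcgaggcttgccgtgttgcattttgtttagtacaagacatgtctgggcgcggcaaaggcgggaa
H2AFX: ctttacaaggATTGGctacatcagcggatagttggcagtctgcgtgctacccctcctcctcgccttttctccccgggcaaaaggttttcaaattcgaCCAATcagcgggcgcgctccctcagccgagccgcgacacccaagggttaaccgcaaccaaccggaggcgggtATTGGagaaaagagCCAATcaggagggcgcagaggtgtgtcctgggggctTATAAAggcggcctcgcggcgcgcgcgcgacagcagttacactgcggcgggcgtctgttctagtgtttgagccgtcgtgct
HIST1H2AI: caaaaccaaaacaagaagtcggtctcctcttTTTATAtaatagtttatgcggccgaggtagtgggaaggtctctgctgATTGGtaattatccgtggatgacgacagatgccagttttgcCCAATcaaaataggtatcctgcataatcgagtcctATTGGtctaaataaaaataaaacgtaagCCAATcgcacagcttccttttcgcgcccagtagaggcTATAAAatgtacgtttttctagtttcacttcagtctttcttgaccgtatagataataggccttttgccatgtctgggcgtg
H2AFZ: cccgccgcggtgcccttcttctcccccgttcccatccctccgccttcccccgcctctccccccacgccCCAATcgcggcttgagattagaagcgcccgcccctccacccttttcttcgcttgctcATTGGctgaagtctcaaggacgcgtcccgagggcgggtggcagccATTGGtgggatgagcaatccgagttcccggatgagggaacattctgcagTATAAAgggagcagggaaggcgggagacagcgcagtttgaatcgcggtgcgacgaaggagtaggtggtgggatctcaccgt

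Both the H4 element and a CCAAT box stood just upstream of the TATA box of HIST1H4L, the only H4 promoter matched that had a CCAAT box. The H2AFX promoter held 4 CCAAT boxes and 1 TATA box.

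Replication-dependent histone mRNA was abundant in all 6 libraries. The 59 genes summed to 19955, 19605 and 22456 FPKM in the LV-HOXD9 libraries, against 19770, 17791 and 20668 FPKM in the LV-Vector libraries, or 20672 ± 1555 and 19410 ± 1472 FPKM (mean ± SD, n = 3 each). The groups overlapped. LV-HOXD9 replicate 3 was highest and LV-Vector replicate 2 lowest. As a share of all FPKM of a library, the sum was 7.89% ± 0.357 in LV-HOXD9 and 7.75% ± 0.359 in LV-Vector. The 9 variant genes summed to 740.5, 739.5 and 797.7 FPKM in LV-HOXD9, against 768.2, 687.0 and 709.3 FPKM in LV-Vector, which also overlapped. The replication-dependent sum was 26.9, 26.5 and 28.2 times the variant sum in LV-HOXD9 and 25.7, 25.9 and 29.1 times in LV-Vector, so the balance of the 2 classes differed by less than the spread between libraries. Without LV-HOXD9 replicate 3 and LV-Vector replicate 2, the ratio of mean sums moved to 0.978, against 1.065 with all libraries.

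**Figure D1:**
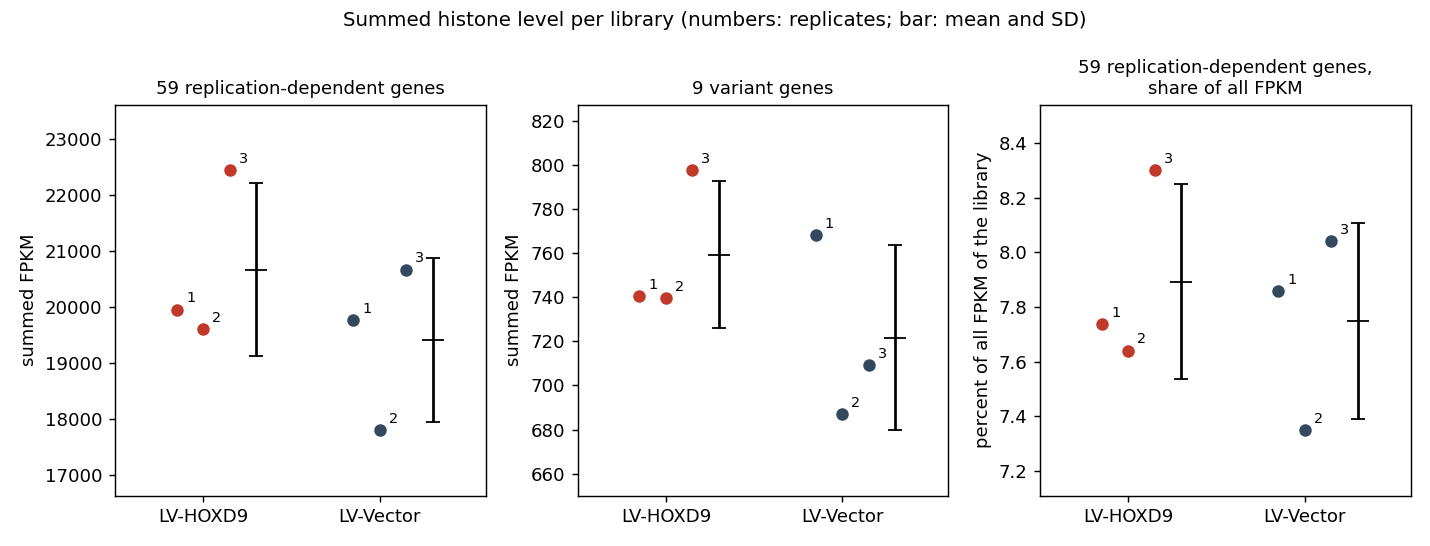
Summed FPKM of the 59 replication-dependent genes (left) and the 9 variant genes (middle), and the replication-dependent sum as a percent of all FPKM of a library (right), for LV-HOXD9 and LV-Vector libraries; points are libraries with their replicate number, bars are mean ± SD, and the axes do not start at 0. LV-HOXD9 replicate 3 (22456 FPKM) and LV-Vector replicate 2 (17791 FPKM) mark the ends of the replication-dependent sums, and the groups overlap in all 3 panels.

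No histone gene passed the test between the groups. With limma on log2(FPKM + 1), fitted on all 12385 genes, 0 of 68 members had an adjusted p under 0.05, against 0.0565% of all genes higher and 0.145% lower in LV-HOXD9. The smallest adjusted p-values from limma were 0.184 for H2AFX, 0.185 for HIST1H4L and 0.223 for HIST2H4B. At an unadjusted limma p under 0.05, 2 replication-dependent genes and 1 variant gene were higher and none was lower, against 7.12% of all genes higher and 11.9% lower. By an unadjusted p under 0.05 in an ordinary linear model with a fold over 1.2, only HIST1H4L was higher and no member was lower, against 1.94% and 4.6% of all genes. The 3 values of each group did not overlap, with LV-HOXD9 higher, in 6 replication-dependent genes (HIST1H1B, HIST1H2BD, HIST1H2BH, HIST1H4C, HIST1H4H and HIST1H4L) and in H2AFX, and with LV-HOXD9 lower in no member, against 10.9% and 17.5% of all genes. With 3 libraries against 3, the exact permutation test of a single gene cannot go below p = 0.10, the value for each of these 7 genes.

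The members nevertheless leaned to one side. The log2 fold change was above 0 in 54 of 59 replication-dependent and 7 of 9 variant genes, against 40.1% of all genes, with medians of 0.070 and 0.039, against -0.044 for all genes tested. By family, the median was 0.083 for the 3 linker histone H1 genes, 0.057 for the 15 H2A genes, 0.057 for the 16 H2B genes, 0.10 for the 13 H3 genes and 0.12 for the 12 H4 genes. The HIST1 cluster on chromosome 6 (46 genes) had a median of 0.072 and the HIST2 cluster on chromosome 1 (12 genes) one of 0.085. The standard error of a single member's log2 fold change was 0.048 to 0.14 outside the 7 models left out further below.

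**Figure D2:**
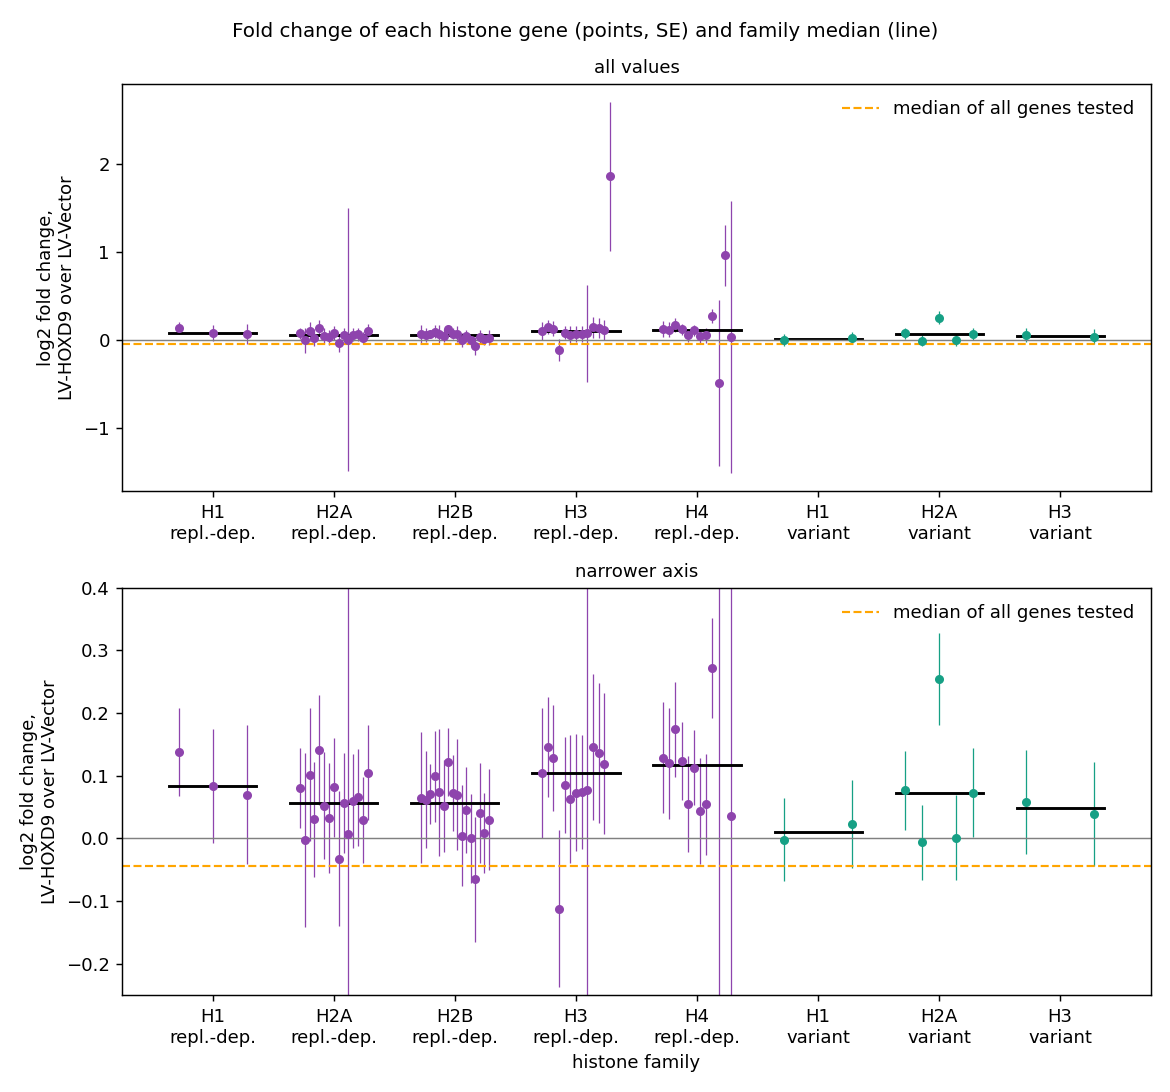
Log2 fold change of each of the 68 histone genes, LV-HOXD9 over LV-Vector on the log2(FPKM + 1) scale, by family, with all values above and a narrower axis below; points are genes, bars the standard error from limma, black lines family medians and the dashed line the median of all genes tested (-0.044). Most genes lie between 0 and 0.15, H2AFX (0.25) lies above the other variants, and HIST1H4L (0.27) above the other H4 genes but HIST2H4B (0.96). The widest bars belong to HIST4H4, HIST1H2AM, HIST2H4A, HIST2H3PS2, HIST1H3J and HIST2H4B.

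That lean was smaller without either of 2 libraries and no longer there without both. LV-HOXD9 replicate 3 was the highest of the 6 libraries in 49 of 59 replication-dependent genes, against 2658 of all 12385 genes. Its median deviation from the mean of these histone genes was 0.16 on the log2 scale. LV-Vector replicate 2 was the lowest in 50 of 59, against 2528 of all 12385 genes. There, the median deviation of the histone genes was -0.15. The other 4 libraries had median deviations between -0.039 and 0.038. The variant genes followed more weakly, with 0.079 in LV-HOXD9 replicate 3, against -0.091 in LV-Vector replicate 2, while the median over all genes had the opposite sign, -0.036 and 0.037. Without both libraries, 17 of 59 replication-dependent genes were above 0, against 44.3% of all genes. Their median log2 fold change was -0.057, against -0.020 for all genes. These libraries held the highest and lowest values of most of these genes. Leaving them out was therefore bound to lower the fold changes, and the loss of the lean carries no test. Without LV-HOXD9 replicate 3 alone, 38 of 59 were above 0, against 42.0% of all genes, and the median was 0.011, against -0.033. Without LV-Vector replicate 2 alone, 34 of 59 were above 0, against 41.2% of all genes, and the median was 0.011, against -0.034. With either library left out, the median thus lay 0.044 above that of all genes, against 0.11 with every library. Under quantile normalization, 21 of 59 genes were above 0, against 50.5% of all genes, and the median was -0.027, against 0.0018. This method gives every library the same set of values, so it can remove a shift that many abundant genes share. Scaling to equal library totals moved all genes down, to a median of -0.11 with 29.9% above 0. There, 34 of 59 replication-dependent genes were above 0 with a median of 0.0062, and the distance to the median of all genes was 0.12.

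**Figure D3:**
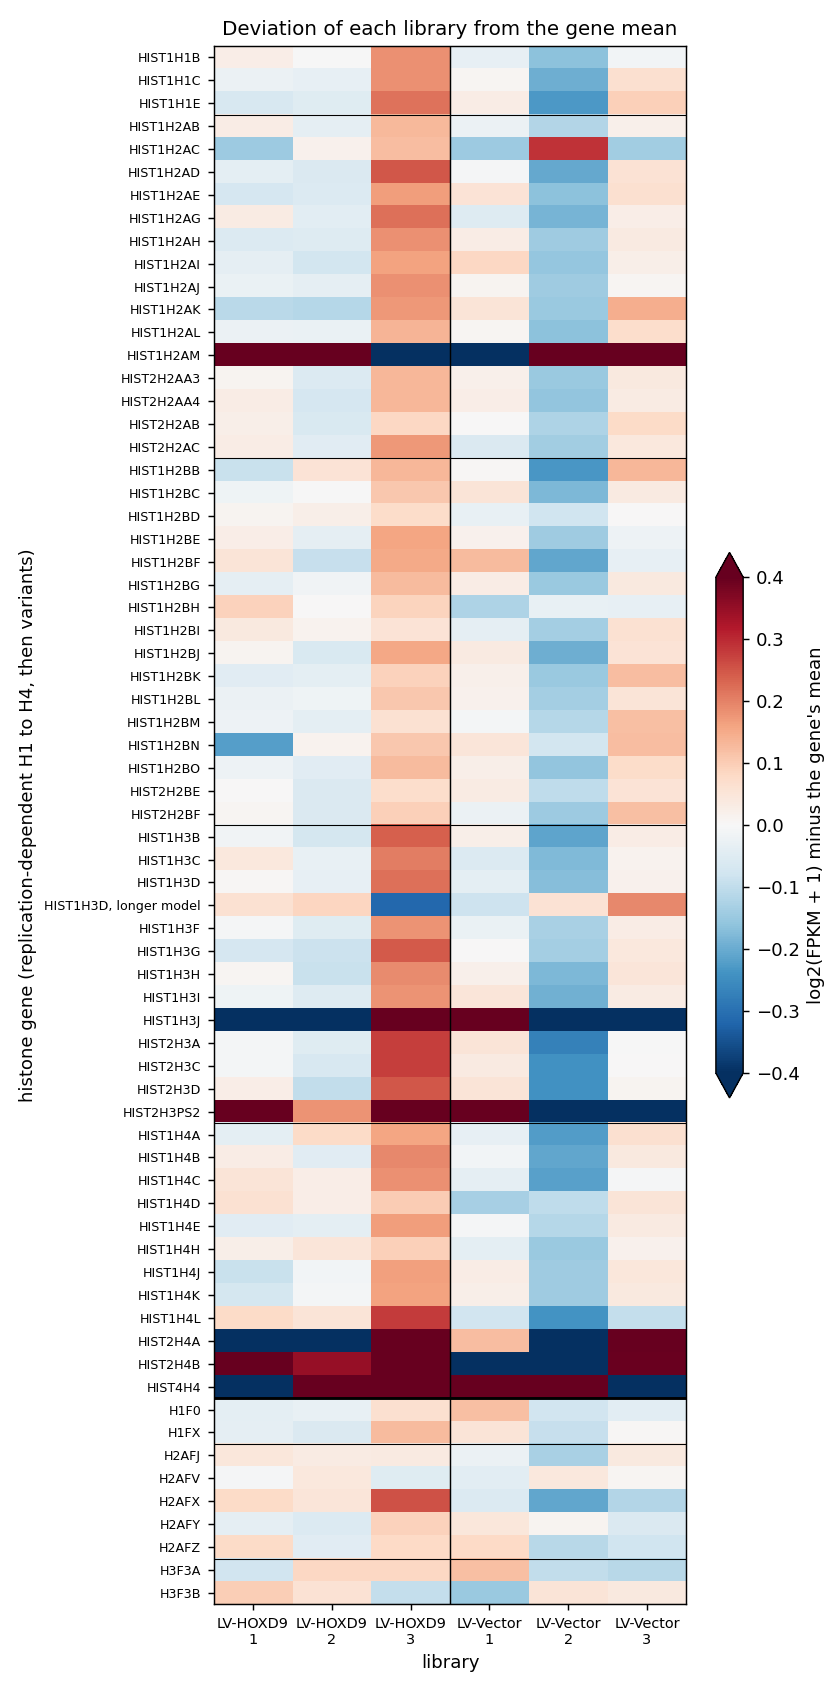
Level of each histone gene in each library as the deviation of log2(FPKM + 1) from the gene's mean over the 6 libraries, with genes in rows by family, replication-dependent above the thick line and variants under it; colours stop at the ends of the scale. The column of LV-HOXD9 replicate 3 is red and that of LV-Vector replicate 2 blue in most replication-dependent rows. The darkest cells lie in the rows of HIST1H2AM, HIST1H3J, HIST2H3PS2, HIST2H4A, HIST2H4B and HIST4H4.

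2 short RNAs outside the members, chosen after the data were seen because they too lack a poly(A) tail, showed the same extremes. RMRP, the RNA of RNase MRP, was at 16248, 16924 and 21242 FPKM in LV-HOXD9, against 16678, 14721 and 15496 FPKM in LV-Vector. TERC, the telomerase RNA, was at 366.7, 341.4 and 439.8 FPKM, against 377.6, 325.0 and 356.7 FPKM. Both were highest in LV-HOXD9 replicate 3 and lowest in LV-Vector replicate 2. Of all 12385 genes, 2658 were highest in the former library and 2528 lowest in the latter. 2 genes chosen in this way cannot show whether RNAs without a tail share the pattern. Replication-dependent transcripts were also short and rich in G and C, with a median length of 411 bases and 59.1% GC, against 1507 bases and 53.2% for variants and 2529 bases and 49.7% for all genes. With dependence on length and GC content taken out of each library, 35 of 55 replication-dependent genes were above 0, against 40.2% of all genes. Their median was 0.021, against -0.035 for all genes, a distance of 0.056. The part of tail, length and GC content in the difference was not tested.

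H2AFX and HIST1H4L had the smallest p-values of the members. H2AFX (chr11:118964564-118966177, GRCh37) encodes H2A.X, which is phosphorylated at DNA double-strand breaks. It was at 159.5, 156.4 and 180.3 FPKM in LV-HOXD9, against 145.4, 130.6 and 139.2 FPKM in LV-Vector, and the groups did not overlap. Its log2 fold change was 0.25 (SE 0.073, adjusted p = 0.184 from limma). HIST1H4L (chr6:27840977-27841288, GRCh37) is an H4 gene of the HIST1 cluster that shared no 50-base window with another histone gene. It was at 454.7, 446.6 and 523.2 FPKM in LV-HOXD9, against 408.7, 365.3 and 403.8 FPKM in LV-Vector, again without overlap. Its log2 fold change was 0.27 (SE 0.079, adjusted p = 0.185 from limma).

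Set against the replication-dependent sum of the same library, both genes still parted. So did others: by this ratio 7 of 68 members were higher and 8 lower without overlap, against 3.75% and 19.7% of all genes. The others higher were HIST1H1B, HIST1H2AG, HIST1H3C, HIST1H4C and HIST2H4B, and those lower were HIST1H2AE, HIST1H2AK, HIST1H2AL, HIST1H2BK, HIST1H2BM, HIST1H2BN, HIST1H2BO and HIST2H2BE. HIST1H4L made up 22.8, 22.8 and 23.3 per 1000 of that sum in LV-HOXD9, against 20.7, 20.5 and 19.5 per 1000 in LV-Vector. H2AFX equalled 7.995, 7.98 and 8.03 per 1000 of it in LV-HOXD9, against 7.36, 7.34 and 6.74 per 1000. HIST1H4C, another H4 gene, made up 21.7, 21.7 and 21.2 per 1000 against 20.6, 20.2 and 20.1 per 1000. In each of these 3 the LV-HOXD9 libraries were close together, LV-HOXD9 replicate 3 no longer stood apart upward, or did so by little, and no value overlapped. These ratios were looked at after the data were seen and carry no test. Over 14 alternatives, the log2 fold change ran over 0.15 to 0.29 for H2AFX, with limma adjusted p-values of 0.0467 to 0.396, and over 0.14 to 0.31 for HIST1H4L, with adjusted p-values of 0.0459 to 0.396. Both passed only with the dependence on length and GC content taken out, with 0.16 and 0.22 on the log2 scale, where 287 genes of the whole table passed, against 25 in the fit on unadjusted levels.

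**Figure D4:**
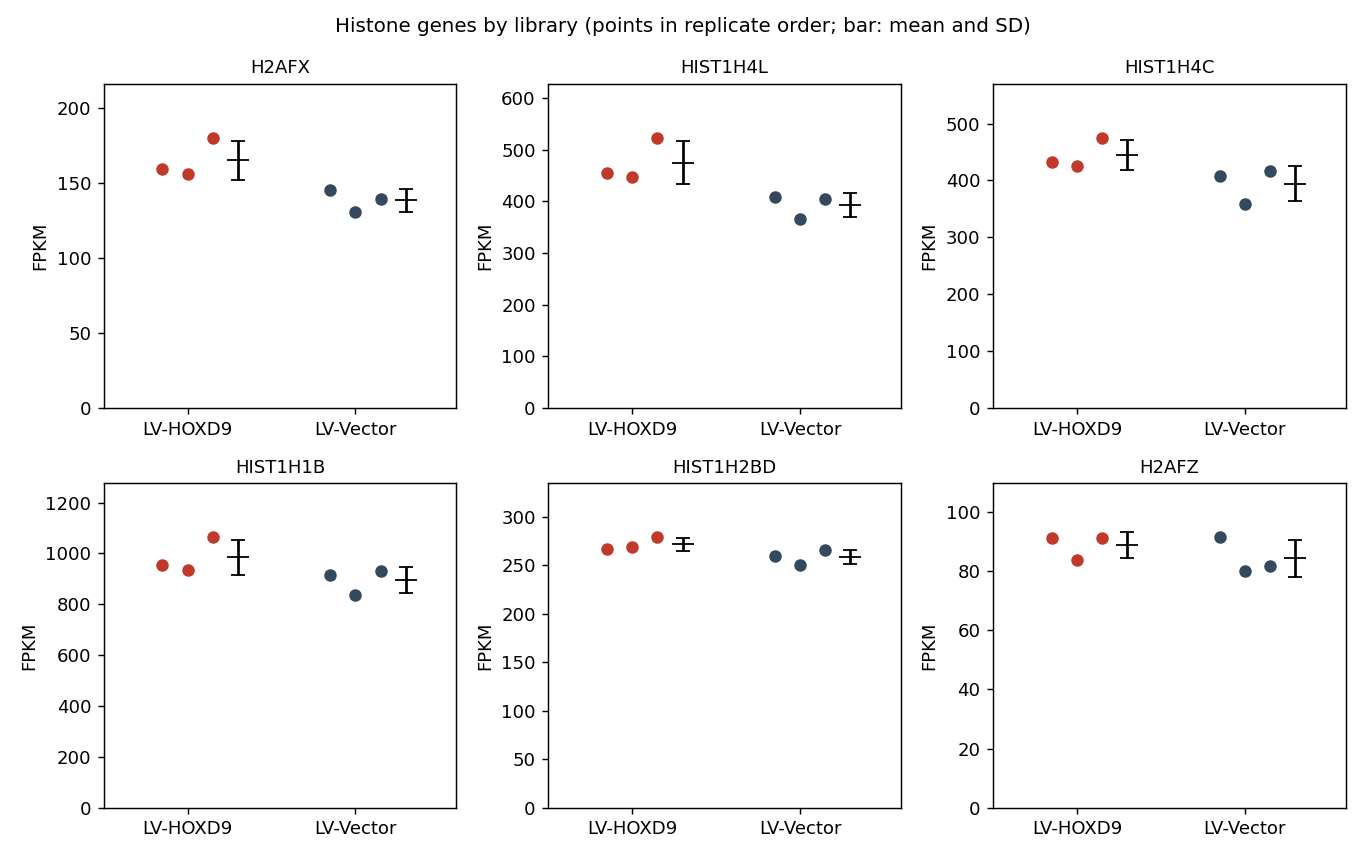
FPKM of 6 histone genes in LV-HOXD9 and LV-Vector libraries, with points in replicate order and bars for mean ± SD; axes start at 0. H2AFX (156.4 to 180.3 against 130.6 to 145.4), HIST1H4L, HIST1H4C, HIST1H1B and HIST1H2BD do not overlap between groups, and H2AFZ does.

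Among linker histones, HIST1H1B, which encodes H1.5 and had the highest mean level of all members, was at 954.3, 935.8 and 1062.7 FPKM in LV-HOXD9, against 916.7, 836.4 and 929.6 FPKM in LV-Vector. Its groups did not overlap, by a narrow margin, and its log2 fold change was 0.14 (SE 0.070). HIST1H1C and HIST1H1E averaged 601.9 ± 52.3 and 519.5 ± 59.1 FPKM in LV-HOXD9, against 568.4 ± 52.6 and 495.1 ± 57.6 FPKM in LV-Vector. Both overlapped.

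In the core histone families, the highest levels belonged to the H3 genes HIST1H3C and HIST1H3B. HIST1H3C averaged 876.7 ± 74.0 FPKM in LV-HOXD9, against 791.7 ± 53.0 FPKM in LV-Vector (log2 fold change 0.15), and HIST1H3B 845.2 ± 98.9 and 785.0 ± 72.4 FPKM (0.10). HIST1H3D, with 661.2 ± 64.3 and 603.7 ± 39.6 FPKM (0.13), stands in the table a further time under the same symbol, as a longer model at 36.5 ± 5.57 and 39.4 ± 3.83 FPKM (-0.11). Of the H4 genes, HIST1H4K averaged 735.5 ± 62.6 and 707.7 ± 48.2 FPKM, HIST1H4D 625.0 ± 16.5 and 574.3 ± 39.9 FPKM, and HIST1H4J 622.9 ± 56.8 and 603.7 ± 42.9 FPKM. HIST1H4C, at 433.1, 425.7 and 475.1 FPKM in LV-HOXD9, against 407.5, 359.3 and 416.3 FPKM in LV-Vector, did not overlap, with a log2 fold change of 0.17 (limma adjusted p = 0.272). The most abundant H2A genes were HIST2H2AA4, HIST1H2AJ and HIST1H2AI, with 657.4 ± 45.9, 632.9 ± 55.5 and 610.6 ± 54.3 FPKM in LV-HOXD9, against 628.3 ± 46.5, 597.4 ± 35.9 and 596.8 ± 49.9 FPKM in LV-Vector. All 3 share most of their sequence with another histone gene, so that reads may have been divided between copies.

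H2A and H2B genes often lie head to head with a shared promoter. 9 such pairs were listed, 218 to 330 bases apart, and the log2 fold changes of the partners differed by a median of 0.048 and by at most 0.096 (HIST2H2BE at 0.0088 and HIST2H2AC at 0.10). The quartiles over all 59 replication-dependent genes were themselves close, at 0.042 and 0.12, and pairs were not compared with unpaired genes. Besides HIST1H2BH, HIST1H2BD was the only H2B gene without overlap, at 266.8, 269.2 and 278.9 FPKM in LV-HOXD9, against 259.6, 250.9 and 265.5 FPKM in LV-Vector (log2 fold change 0.070). The lowest H2A level was that of HIST1H2AC, at 4.97 ± 0.552 FPKM in LV-HOXD9, against 5.02 ± 1.08 FPKM in LV-Vector. Only 1 transcript of this gene was listed, against 3 in GENCODE release 29. The listed transcript has 1462 bases and no stem-loop, so the values describe that model only. HIST1H2AC was the only replication-dependent gene with its highest value in LV-Vector replicate 2. Its log2 fold change of -0.0026 was among the 5 smallest, with those of HIST1H2AK (-0.032) and HIST1H2BN (-0.065).

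The largest fold changes belonged to genes that share sequence with another histone gene, and their FPKM values overlapped between the groups. Whether reads were divided between such copies was not tested. HIST2H3PS2, an H3 gene that shares 56.1% of its 50-base windows with another histone gene, was at 17.2, 7.48 and 17.9 FPKM in LV-HOXD9, against 10.96, 3.98 and 0.021 FPKM in LV-Vector. Its log2 fold change was 1.86 (SE 0.84), and 0.89 without the library of the last of these values. HIST2H4A and HIST2H4B, H4 genes near each other in opposite directions on chromosome 1, share 95.1% to 100% of their windows. HIST2H4B was at 167.1, 159.0 and 199.99 FPKM in LV-HOXD9, against 70.6, 60.6 and 164.5 FPKM in LV-Vector, with a log2 fold change of 0.96 (SE 0.35, adjusted p = 0.223 from limma). Without LV-Vector replicate 3 this became 1.40, with an adjusted p of 0.0373 from limma. HIST2H4A was at 25.3, 19.9 and 194.9 FPKM, against 60.4, 29.7 and 156.0 FPKM, with a log2 fold change of -0.49 (SE 0.94). Their sums, 192.5, 178.9 and 394.9 FPKM in LV-HOXD9, against 131.0, 90.3 and 320.5 FPKM in LV-Vector, overlapped.

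Among transcript models, some pairs traded their level between libraries. HIST1H3J-202 runs across HIST1H2AM, and 86.3% of the windows of HIST1H2AM lie in it. In LV-HOXD9 replicate 3 and LV-Vector replicate 1, HIST1H3J-202 was at 482.9 and 441.5 FPKM and HIST1H2AM at 29.3 and 31.6 FPKM. In the other 4 libraries, HIST1H3J-202 was at 0.24 to 0.33 FPKM and HIST1H2AM at 510.5 to 595.2 FPKM. The sum of both was 555.1 ± 38.0 FPKM in LV-HOXD9, against 526.4 ± 62.7 FPKM in LV-Vector. HIST1H2BC behaved alike: HIST1H2BC-201 took 333.0 to 362.7 FPKM in the LV-HOXD9 libraries and LV-Vector replicate 1, and HIST1H2BC-202 took 348.3 and 406.7 FPKM in LV-Vector replicates 2 and 3. Here the log2 fold changes were 4.22 and -3.24 (adjusted p = 0.688 each from limma), whereas the sums were 355.9 ± 17.1 and 374.2 ± 30.8 FPKM. HIST4H4 on chromosome 12 was at 0.971, 39.6 and 47.3 FPKM in LV-HOXD9, against 41.5, 35.02 and 1.34 FPKM in LV-Vector. With 7 models left out (HIST1H3J, HIST1H2AM, HIST2H4A, HIST2H4B, HIST4H4, HIST2H3PS2 and the longer model of HIST1H3D, chosen after their values were seen), the median of the other 52 replication-dependent genes was 0.072.

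**Figure D5:**
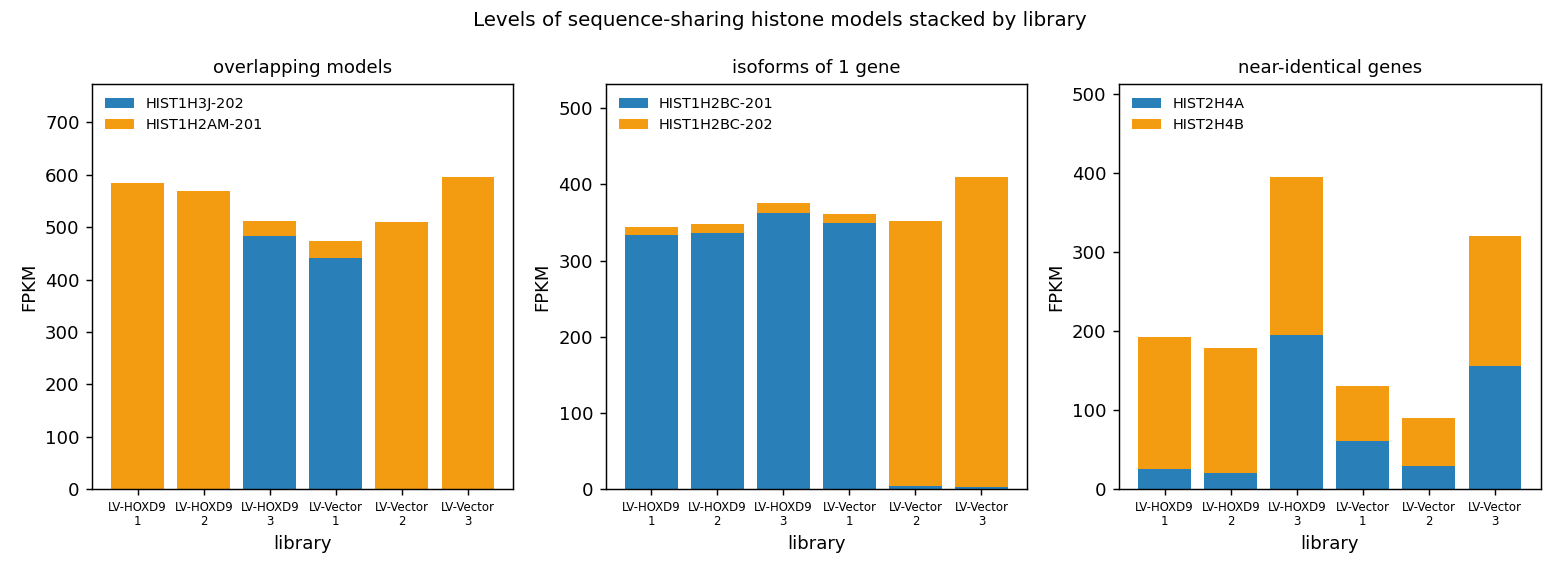
FPKM of 3 pairs of models that share sequence, stacked by library, for HIST1H3J-202 with HIST1H2AM-201 (left), HIST1H2BC-201 with HIST1H2BC-202 (middle) and HIST2H4A with HIST2H4B (right). In the left and middle pairs nearly all of the level sits on 1 of the models in each library, while the sums stay within 473 to 596 and 344 to 409 FPKM.

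Of 70 replication-dependent and 31 variant transcripts, 0 had an adjusted p under 0.05 from limma, against 0.0992% of all 40304 transcripts in either direction. At an unadjusted limma p under 0.05, HIST1H4L-201 and HIST1H2BN-201 were higher and no transcript was lower, against 3.22% and 3.77% of all transcripts.

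Among the other variant genes, the levels spanned 12.9 to 246.6 FPKM and the differences were small. H1F0, the linker histone of resting and differentiated cells, was at 239.6, 241.1 and 257.2 FPKM in LV-HOXD9, against 267.2, 233.5 and 239.1 FPKM in LV-Vector (log2 fold change -0.0018, SE 0.067). H1FX (H1.10) averaged 93.9 ± 6.75 and 92.3 ± 4.66 FPKM. H2AFZ, the main H2A.Z gene, was at 91.2, 83.7 and 91.4 FPKM in LV-HOXD9, against 91.5, 80.0 and 81.7 FPKM in LV-Vector, and H2AFV, the other H2A.Z gene, averaged 12.9 ± 0.430 and 12.96 ± 0.411 FPKM. H3F3A and H3F3B, which encode the same H3.3 protein, averaged 95.2 ± 5.96 and 24.2 ± 1.75 FPKM in LV-HOXD9, against 91.5 ± 8.55 and 23.6 ± 1.88 FPKM in LV-Vector. H2AFJ averaged 20.0 ± 0.0866 and 18.9 ± 1.18 FPKM, and H2AFY, which encodes macroH2A1, 12.95 ± 0.785 and 12.9 ± 0.491 FPKM. The groups overlapped in all 8, and their log2 fold changes lay between -0.0062 and 0.077.

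Genes that make, cut, degrade or place histones were read from lists, and no member of any list passed the adjusted test. The 26 genes of histone pre-mRNA processing had a median log2 fold change of 0.0048, with 3 higher and 3 lower at an unadjusted limma p under 0.05, against 7.12% and 11.9% of all genes. SLBP, the stem-loop binding protein, was at 30.3, 29.8 and 28.0 FPKM in LV-HOXD9, against 29.4, 30.3 and 28.6 FPKM in LV-Vector. Of the most abundant members, SNRPB, a protein shared with spliceosomal particles, was higher without overlap, at 317.0, 318.2 and 338.1 against 292.9, 273.7 and 279.0 FPKM (log2 fold change 0.20, adjusted p = 0.165 from limma). SNRPG gave 0.18 without overlap, and SNRPE and SNRPD3 gave 0.017 and 0.0068 with overlap. In the U7 complex, LSM10 averaged 19.6 ± 2.10 and 18.1 ± 0.930 FPKM and LSM11 2.53 ± 0.176 and 2.68 ± 0.241 FPKM.

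For transcription at the histone locus body, 12 of 14 genes were listed, with a median of -0.11, 1 higher and 2 lower at an unadjusted limma p under 0.05 (7.12% and 11.9% of all genes). NPAT, the coactivator that cyclin E and CDK2 switch on, was at 3.28, 2.99 and 3.12 FPKM in LV-HOXD9, against 4.14, 5.48 and 3.87 FPKM in LV-Vector. The groups did not overlap, with a log2 fold change of -0.40 (limma adjusted p = 0.185). CASP8AP2 (FLASH) gave -0.38, also without overlap (adjusted p = 0.214 from limma), and HINFP, which binds the H4 element, gave -0.093 with overlap. CDC25A, the phosphatase that activates CDK2, was at 13.3, 14.6 and 14.2 against 11.2, 11.1 and 11.3 FPKM (0.30, adjusted p = 0.116 from limma). The more abundant YY1, CREBBP and CCNE1 gave -0.21, 0.038 and 0.10, all with overlap.

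The 21 genes of histone mRNA decay had a median of -0.010, with 1 higher and 3 lower by the same measure (7.12% and 11.9% of all genes). LSM1, a subunit of the ring that starts decay from the oligouridylated end, came nearest to the threshold, with 15.2, 15.3 and 15.1 FPKM in LV-HOXD9, against 10.8, 9.38 and 10.4 FPKM in LV-Vector (log2 fold change 0.53, adjusted p = 0.0502 from limma). LSM2, LSM4 and PATL1, the most abundant decay genes beside SLBP, gave 0.11, 0.088 and -0.13. The 40 chaperone and deposition genes had a median of 0.0034, with 3 higher and 1 lower, against the same shares. There, ATRX, which places H3.3 with DAXX, was at 1.68, 1.79 and 1.55 FPKM in LV-HOXD9, against 2.17, 3.23 and 2.59 FPKM in LV-Vector (-0.44, adjusted p = 0.165 from limma). CHAF1A, a subunit of the replication-coupled chaperone CAF-1, averaged 20.2 ± 0.638 and 19.9 ± 0.168 FPKM. The most abundant, NPM1, SET, NCL and RUVBL2, gave log2 fold changes of 0.070, -0.00082, 0.032 and 0.16.

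Of 40 genes of S phase DNA replication, 10 were higher and 2 lower at an unadjusted limma p under 0.05, with a median of 0.084, against 7.12% and 11.9% of all genes. TYMS, thymidylate synthase, was at 53.2, 52.2 and 51.0 FPKM in LV-HOXD9, against 45.1, 44.2 and 43.4 FPKM in LV-Vector (0.23, adjusted p = 0.127 from limma). TK1, FEN1 and RRM2 gave 0.28, 0.19 and 0.31, also without overlap. Of the 40 genes, 11 had a log2 fold change below 0, the lowest at -0.26. PCNA, the replication clamp, overlapped, at 193.6, 190.6 and 146.3 against 141.2, 181.4 and 176.1 FPKM. In these S phase genes, 13 of 40 had their lowest value in LV-HOXD9 replicate 3, and likewise 13 of 40 in LV-Vector replicate 2. The counts were 2 and 50 of 59 replication-dependent histone genes, and 4150 and 2528 of all 12385 genes. Of 29 genes of G2 and M phase, 9 were higher and none lower, against the same shares, with a median of 0.031, led by CDC20, an activator of the anaphase-promoting complex, at 144.8, 142.9 and 148.0 against 117.8, 103.5 and 108.3 FPKM (0.40, adjusted p = 0.0753 from limma). UBE2C and CCNB1 gave 0.23 and 0.21 without overlap, and TPX2 gave 0.038. In this list, 12 of 29 genes had a log2 fold change below 0, the lowest at -0.52. Of 18 listed genes with a histone fold or histone name outside the rule, 4 were higher and none lower, against the same shares, with a median of 0.11. CENPX, POLE3, CENPW and TAF6, the most abundant, gave 0.30, 0.23, 0.13 and 0.084. CENPA, the centromeric H3, averaged 11.04 ± 0.609 and 10.3 ± 1.38 FPKM.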

How the data were processed

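RNA from 3 LV-HOXD9 and 3 LV-Vector libraries of MKN-74 cells was sequenced by the authors from a stranded kit. The sources used here do not give whether poly(A) RNA was selected or ribosomal RNA removed. Per the labels, reads were trimmed (cutadapt), checked (FastQC), aligned to GRCh37 (HISAT2) and assembled (StringTie), with no versions stated. The authors deposited FPKM values from Ballgown for genes and transcripts, without a stated scaling between libraries. All genes listed average 0.500 FPKM or more in a group. The low values have no steps of whole reads, and as depth is thus unknown, intervals for counting error are left out.

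Genes and transcripts were fitted separately on log2(FPKM + 1) with limma 3.58.1 in R 4.3.3 with trended variances, over all rows, with Benjamini-Hochberg adjustment at 0.05 and no block. The fit was tested on simulated data. Single genes were tested by a two-sided exact permutation test. The rule for named genes took HOXD9, all variants, the 10 replication-dependent genes with the highest mean, the 5 with the largest and the 5 with the smallest log2 fold change, and up to 4 most abundant genes of each list. The members, lists and libraries left out were chosen with earlier results of these data known. Other genes were named after their values were seen, among them HIST1H1C, HIST1H1E, HIST1H2BD, HIST1H2BH, HIST1H4H and those with uneven levels between models or libraries. NPAT, CASP8AP2, HINFP, LSM1, LSM10, LSM11, ATRX, CHAF1A, RRM2, CENPA, LYZ, CD68, RMRP and TERC were also named in this way. So were the motifs. 1 marker gene is not reported here.

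Alternatives were a pseudocount of 0.1, a minimum mean of 1 FPKM, library totals of 1000000, quantile normalization, a replicate block, limma without trend, and leaving out libraries. Length and GC trends were taken out (loess, span 0.5), and divided genes left out, as alternatives added after seeing the data. Sequences came from GENCODE release 29 and RefSeq, with positions on GRCh38.p14 for promoters and on GRCh37 for genes. Tools were Python 3.11.15, pandas 2.3.3, scipy 1.17.1 and matplotlib 3.10.9.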

Additional observations from a re-analysis of the deposited data

How the results depend on the processing

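The limma count of 0 histone genes in each direction held with a pseudocount of 0.1, a minimum mean of 1 FPKM, the TPM scale, quantile normalization, the replicate block and limma without trend. It became 1 replication-dependent gene higher (HIST2H4B) without LV-Vector replicate 3, a range of 0 to 1 over the libraries left out, and 1 replication-dependent (HIST1H4L) and 1 variant gene (H2AFX) higher with length and GC trends removed. By unadjusted p and fold, the 1 replication-dependent gene became 0 under the TPM scale, quantile normalization, the replicate block, removal of length and GC trends and with both LV-HOXD9 replicate 3 and LV-Vector replicate 2 left out, and ranged over 0 to 1 without single libraries, where the variant count also ranged over 0 to 1. The cause of these moves was not tested. The median log2 fold change of the replication-dependent genes kept its sign except for -0.057 without both libraries and -0.027 under quantile normalization, and lay between 0.011 and 0.12 without single libraries. The variant median was -0.024 on the TPM scale, where all genes had -0.11, and -0.020 with length and GC trends removed, where all genes had -0.035, so it stayed above that of all genes by 0.090 and 0.015. With the replicate number as a block, 3 genes of the whole table passed, against 25 without it, and 0 histone genes. Deviations from the group means were weakly correlated between libraries of the same number (r of -0.173, 0.168 and -0.0064). Deviations within a group of 3 depend on each other, so these values cannot exclude shared handling.

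None of the named genes with a change of direction had passed the test in either fit. The TPM scale moved the median of all genes to -0.11, against -0.044, and with it 12 genes near 0 changed direction, H1FX (-0.041), H2AFY (-0.062), H3F3A (-0.0058), H3F3B (-0.024), HIST1H4K (-0.010), HIST1H4J (-0.021), HIST1H2AI (-0.032), SNRPE (-0.047), SNRPD3 (-0.057), CREBBP (-0.024), NCL (-0.032) and TPX2 (-0.026). Under quantile normalization, H1FX (-0.070), H2AFV (0.0066), H2AFZ (-0.011), H3F3A (-0.048), HIST2H2AA4 (-0.027), HIST1H2AJ (-0.0064), HIST1H4J (-0.047), HIST1H2AI (-0.040), HIST1H2AC (0.068), SNRPE (-0.037), SNRPD3 (-0.041), NPM1 (-0.031), NCL (-0.067), PCNA (-0.035) and TPX2 (-0.055) did. With length and GC trends removed, H1FX (-0.066), H2AFJ (-0.00097), H2AFY (-0.025), H3F3A (-0.020), HIST1H4K (-0.0099), HIST2H2AA4 (-0.0067), HIST1H4J (-0.020), HIST1H2AI (-0.032), HIST1H2AC (0.034), SNRPD3 (-0.046) and SET (0.045) did, and with both LV-HOXD9 replicate 3 and LV-Vector replicate 2 left out, H1FX (-0.074), H2AFV (0.036), H2AFY (-0.039), H3F3A (-0.0028), HIST1H3B (-0.068), HIST1H4K (-0.071), HIST2H2AA4 (-0.048), HIST1H3D (-0.0027), HIST1H2AJ (-0.041), HIST1H4J (-0.088), HIST1H2AI (-0.11), HIST2H3A (-0.053), the longer model of HIST1H3D (0.019), HIST1H2AC (0.079), YY1 (0.098), SLBP (0.049), SET (0.095) and TAF6 (-0.044) did. Over single libraries left out, the range crossed 0 for CCNE1 (-0.0048 to 0.17), CREBBP (-0.012 to 0.085), H1F0 (-0.040 to 0.057), H1FX (-0.034 to 0.058), H2AFV (-0.029 to 0.016), H2AFY (-0.044 to 0.029), H3F3B (-0.026 to 0.097), HIST1H2AC (-0.076 to 0.14), HIST1H2AI (-0.039 to 0.082), HIST1H2AK (-0.13 to 0.033), HIST1H2BN (-0.14 to 0.029), the longer model of HIST1H3D (-0.18 to 0.018), HIST1H4J (-0.028 to 0.099), HIST1H4K (-0.013 to 0.10), HIST2H4A (-1.51 to 0.13), NCL (-0.011 to 0.11), PCNA (-0.027 to 0.22), SET (-0.050 to 0.071), SLBP (-0.027 to 0.029), SNRPD3 (-0.036 to 0.032), SNRPE (-0.074 to 0.080) and YY1 (-0.35 to 0.042). Of 812 alternative values of 58 named genes, 710 kept direction and side of the threshold, 96 changed direction and 6 passed the threshold anew. Depth is unknown, so no limit of detection can be given.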

Other observations

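For HIST2H4A and HIST2H4B the deposited gene level lay above that of the only transcript listed. HIST2H4A was at 19.9 to 194.9 FPKM over all libraries as a gene, whereas HIST2H4A-201 was at 0.076 to 5.30 FPKM. HIST2H4B was at 60.6 to 199.99 FPKM as a gene, whereas HIST2H4B-201 was at 0.053 to 44.0 FPKM. For some other histone genes the gene level lay below that of the leading transcript. HIST1H4H was at 78.9 to 82.9 FPKM in LV-HOXD9, against 69.9 to 78.5 FPKM in LV-Vector as a gene, whereas its transcript HIST1H4H-201 was at 428.2 to 451.1 and 380.0 to 426.4 FPKM. H3F3A, at 88.3 to 98.6 FPKM in LV-HOXD9, against 86.2 to 101.4 FPKM in LV-Vector as a gene, had its leading transcript H3F3A-204 at 228.7 to 292.5 and 263.2 to 276.3 FPKM.

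Isoforms of H3F3A varied between libraries more than the gene did. H3F3A-203 was at 32.5, 111.6 and 13.9 FPKM in LV-HOXD9, against 93.7, 49.1 and 37.7 FPKM in LV-Vector. H3F3A-201 was at 56.0 FPKM in LV-HOXD9 replicate 3 and at 0.71 to 2.17 FPKM in the other 5 libraries. HIST1H2BN-201 was at 5.41, 5.29 and 1.78 FPKM in LV-HOXD9, against 1.62, 1.55 and 1.67 FPKM in LV-Vector.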
